A study of Mus musculus with 14 samples.

Results

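PRDM16 binding was described here at 7 genes of the cardiac thin filament, Tnnt2, Tnni1, Tnni3, Tnnc1, Actc1, Tpm1 and Lmod2. A wild-type (WT) PRDM16 peak belonged to a gene when that gene was the nearest protein-coding gene to the peak summit, measured to the gene body on GRCm38. By this rule 28 of 17587 WT peaks belonged to the 7 genes, and each of the 7 had at least 2. Binding was measured by chromatin immunoprecipitation and sequencing (ChIP-seq) in ventricles of C57BL/6 mouse embryos at E13.5 (embryonic day). Whole ventricles, with the atria removed, gave 2 WT libraries and 1 library of a Prdm16 conditional knockout (Prdm16cKO), each from 3 pooled hearts. Left ventricles (LV) and right ventricles (RV) of WT embryos gave 2 PRDM16 libraries each, and every one of them pooled 10 to 12 ventricles. WT is the label Mock under genetic manipulation, and the sources used here name neither the Cre driver nor the deleted part of Prdm16.

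The thin filament is the actin strand of the sarcomere, the contractile unit of heart muscle. Tropomyosin lies along the actin and covers the sites that myosin binds, and the troponin complex moves it when calcium rises. Troponin C senses calcium, troponin I holds the filament in the inhibited state, and troponin T ties the complex to tropomyosin. Tnni1 encodes the slow skeletal troponin I that the fetal heart uses, and Tnni3 the cardiac troponin I that takes its place in the mature heart. PRDM16 is a zinc-finger transcription factor and chromatin regulator of the compact ventricular muscle. RNA was not measured in these libraries, so the values below are signal at DNA and not gene expression.

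WT PRDM16 peaks lay over the promoters of 6 of the 7 genes. A promoter window is taken here as the 250 bases before to the 50 bases after a transcription start listed by RefSeq. Among 17492 protein-coding genes with such a window, 1617 (9.24%) had a WT peak over one. The 7 genes were chosen with earlier results of these data known, so the contrast with this share is a description and not a test. Tnni1 was the exception, with a peak that began 110 bp past its nearer window. Each gene had an entry in the RefSeq table of GRCm38.p6. The 250 bases before the start are shown for the 6 windows under a peak, read 5′ to 3′ along the strand of the gene, because a peak overlaps each of these windows. The peaks of Tnni3 and Tnnc1 cover only part of theirs. Capitals mark matches to the searched motifs.
Tnnt2 (chr1:135836084-135836333, plus strand): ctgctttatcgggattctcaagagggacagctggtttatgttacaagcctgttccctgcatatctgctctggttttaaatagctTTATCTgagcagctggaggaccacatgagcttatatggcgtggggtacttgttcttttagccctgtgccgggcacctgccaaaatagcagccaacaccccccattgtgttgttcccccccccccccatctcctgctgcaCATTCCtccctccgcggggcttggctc
Tnni3 (chr7:4522529-4522778, minus strand): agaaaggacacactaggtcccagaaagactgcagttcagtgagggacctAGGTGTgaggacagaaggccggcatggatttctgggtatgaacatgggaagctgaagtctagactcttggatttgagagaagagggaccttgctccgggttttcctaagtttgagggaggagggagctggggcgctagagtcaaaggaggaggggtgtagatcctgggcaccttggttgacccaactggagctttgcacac
Tnnc1 (chr14:31208062-31208311, plus strand): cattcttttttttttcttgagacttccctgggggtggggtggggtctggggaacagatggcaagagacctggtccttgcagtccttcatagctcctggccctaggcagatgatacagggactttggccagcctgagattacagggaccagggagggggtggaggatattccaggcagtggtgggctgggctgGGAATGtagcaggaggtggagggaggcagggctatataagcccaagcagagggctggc
Actc1 (chr2:114052876-114053125, minus strand): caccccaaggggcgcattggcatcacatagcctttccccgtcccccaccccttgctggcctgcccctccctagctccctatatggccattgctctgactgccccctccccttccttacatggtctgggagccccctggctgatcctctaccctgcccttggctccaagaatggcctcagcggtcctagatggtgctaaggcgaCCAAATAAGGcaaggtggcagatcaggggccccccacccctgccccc
Tpm1 (chr9:67049214-67049463, minus strand): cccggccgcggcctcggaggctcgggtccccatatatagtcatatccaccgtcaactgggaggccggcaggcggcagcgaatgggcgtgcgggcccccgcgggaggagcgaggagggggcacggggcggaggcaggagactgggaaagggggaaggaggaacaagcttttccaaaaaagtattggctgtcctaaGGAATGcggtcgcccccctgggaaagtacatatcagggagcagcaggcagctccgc
Lmod2 (chr6:24597521-24597770, plus strand): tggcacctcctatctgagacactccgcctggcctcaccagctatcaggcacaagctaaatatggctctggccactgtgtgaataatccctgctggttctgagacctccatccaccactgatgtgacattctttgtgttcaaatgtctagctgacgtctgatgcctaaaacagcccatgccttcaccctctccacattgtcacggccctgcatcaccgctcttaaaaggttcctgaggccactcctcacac

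The searched motifs, on both strands, were the TATA box TATAAA, the TEAD motif CATTCC, the GATA motif AGATAA, the T-box motif AGGTGT, the NKX2-5 motif CAAGTG, the CArG box (the SRF motif) and the MEF2 motif. A CArG box or a MEF2 motif can hold TATAAA within it, but no matches overlapped in these windows. A match is a run of letters and no more. The TEAD motif was found at more of the genes than any other searched, in the windows of Tnnt2, Tpm1 and Tnnc1 (3 of 9 listed windows of the 7 genes), against 14.7% of 32851 windows in the table and 15.3% of the 2158 windows under a WT peak. In Tnnt2 it covered bases -27 to -22 from the start, in Tpm1 bases -56 to -51 and in Tnnc1 bases -58 to -53. All 3 matches lay wholly under a WT peak, with centres 198, 112 and 75 bp from the summit. Windows with a given 6-letter motif are common in the table, and 3 of 9 is too few to compare with its share.

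A CArG box was found in 1 window, that of Actc1 at bases -47 to -38, under the peak and 442 bp from its summit. This motif was in 1.63% of windows in the table and in 1.99% of those under a WT peak. The TATA box motif was also found only at Actc1 among the 7 genes, at bases 34 to 39 after the listed start, which are not printed (13.6% of windows in the table, 6.63% of those under a WT peak). Tnnt2 held a GATA motif at bases -166 to -161, 59 bp from the summit (11.2% of windows, 7.55% of those under a peak). T-box motifs were found in Tnni3 at bases -201 to -196, 2 bp outside the peak, and in Tnni1, 347 bp from the nearest peak (13.7% of windows, 9.36% of those under a peak). By windows the T-box motif equalled the TEAD motif, with 3 of 9, since the same Tnni1 site lies in both listed windows of that gene. MEF2 and NKX2-5 motifs had no match in the 9 windows, which says only that the letters are not there. MEF2 motifs were in 0.557% of all windows and 1.81% of those under a WT peak, and NKX2-5 motifs in 13.6% and 11.9%.

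Peaks at the 7 genes ranged in fold enrichment from 2.58 to 13.3, the latter rank 180 of the WT list. The unit of peak strength is the fold enrichment of ChIP over background in the authors' WT peak list, a single value per peak for 2 libraries, without a spread between replicates. The 28 peaks had a median fold enrichment of 3.75, against 4.004 over all 17587, and 9 of them reached 5, as did 26.1% of all WT peaks. At the gene level the strongest peak ranked between 177 for Tnni1 and 2502 for Tnnc1 among the 7202 protein-coding genes nearest to a WT peak. The 6 peaks over promoter windows had a median fold enrichment of 8.03 (range 3.29 to 13.1), and all 1864 WT peaks over a promoter window a median of 3.70. In 5 of the 7 genes the strongest peak was the one over the promoter window, and in Tnni1 and Tnnc1 it lay inside the gene.

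**Figure D1:**
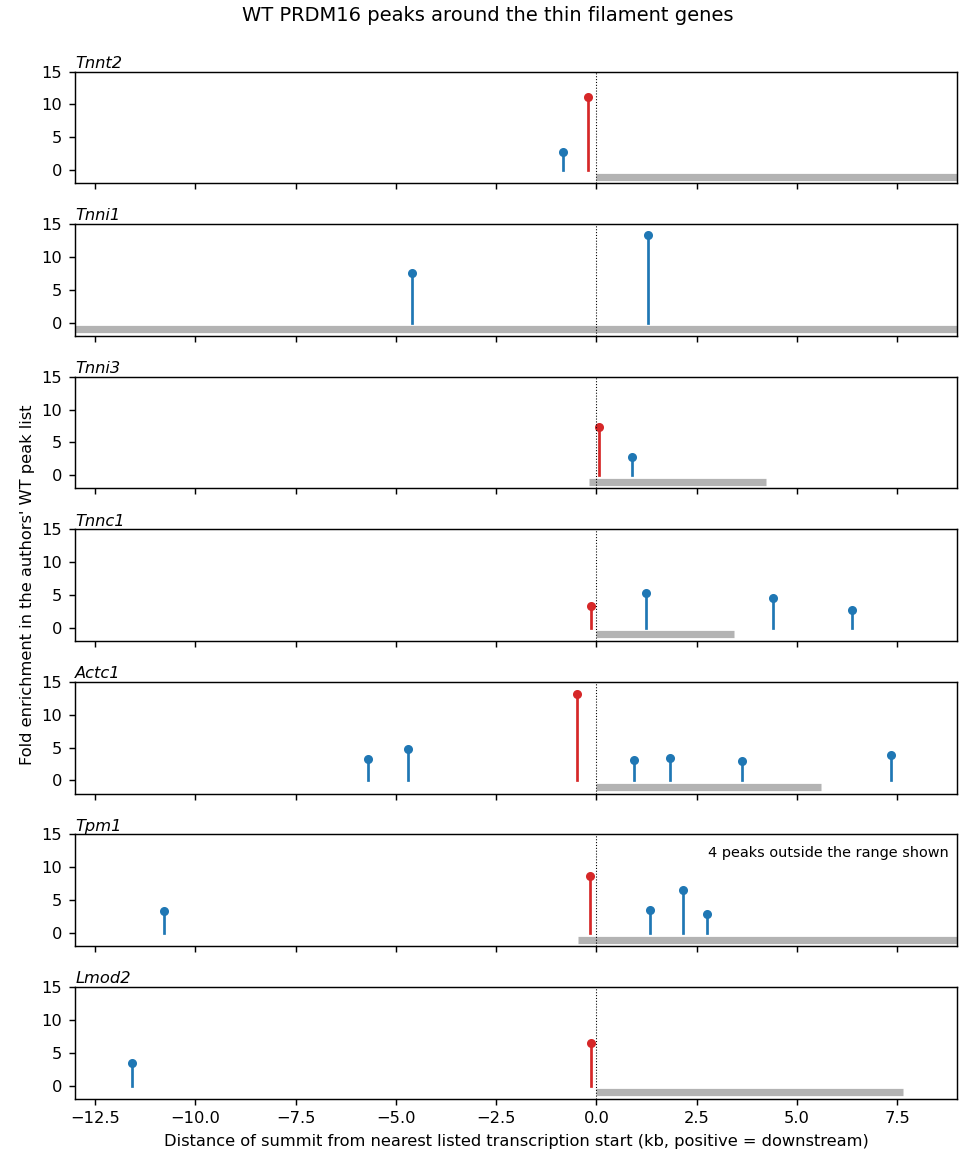
WT PRDM16 peaks at the 7 thin filament genes, 1 panel per gene, with the distance of the summit from the nearest listed transcription start in kb on the x axis and the fold enrichment of the authors' WT peak list on the y axis. Red stems are peaks over a promoter window, blue stems other peaks, the grey bar is the gene body and the dotted line the start. Red stems stand in 6 panels, and Tnni1 has its strongest peak 1296 bp downstream of a start. Another 4 peaks of Tpm1 lie outside the range shown.

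Tnnt2, the gene of cardiac troponin T, had 2 peaks. The strong one (chromosome 1, 135835721 to 135836506) had a fold enrichment of 11.1 and a -log10 q of 67.2, and its summit lay 223 bp before the start. At 786 bp it was also wide, since 4.26% of WT peaks were at least as wide. The other peak, with its summit 826 bp before the start, had a fold enrichment of 2.78, and 93.9% of WT peaks were at or above that value. Neither peak lay inside the gene, whose nearest neighbour Lad1 was 2770 bp from the strong summit.

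Both troponin I genes were bound, at different places relative to the start. Tnni1 had the strongest peak of the 28 (chromosome 1, 135799670 to 135801143), with a fold enrichment of 13.3 and a -log10 q of 75.1. This peak was 1474 bp wide, rank 33 of the WT list, and its summit was 1296 bp downstream of a listed start. The other Tnni1 peak (fold enrichment 7.63) had its summit 4602 bp before a listed start, within the longer gene model of the RefSeq table. Tnni3 had its strong peak over the start (chromosome 7, 4522228 to 4522722; fold enrichment 7.36), with the summit 54 bp downstream. Its other peak lay 873 bp downstream and was weak at 2.71. The neighbouring gene Dnaaf3 was 459 bp from the strong Tnni3 summit, so that assignment by distance separates these genes by little.

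Tnnc1, the gene of the calcium sensor troponin C of slow and cardiac muscle, had 4 peaks and the lowest strongest value of the 7 genes. That peak lay inside the gene (chromosome 14, 31209169 to 31209709), 1233 bp downstream of the start, with a fold enrichment of 5.35. The peak over the promoter window (31208134 to 31208336) was weaker, at 3.29, with its summit 131 bp before the start. The other 2 peaks lay 4409 and 6362 bp downstream, past the end of the gene, with fold enrichments of 4.48 and 2.65. The summit of the farther one was 2945 bp from Tnnc1 and 3199 bp from Sema3g, so that distance separates these genes by little. Nisch lay 1355 bp from the summit of the promoter peak.

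Actc1, the gene of cardiac alpha-actin, had 7 peaks, a number reached by 6.66% of genes with a WT peak. Its promoter peak (chromosome 2, 114052796 to 114054898) had a fold enrichment of 13.1 and a -log10 q of 63.1. It was 2103 bp wide, rank 8 of 17587 by width, and its summit lay 484 bp before the start. The other 6 had fold enrichments of 2.96 to 4.73, and 3 of them lay inside the gene. The 2 upstream peaks, 4707 and 5686 bp before the start, fall to the noncoding gene C130080G10Rik when all genes of the table are allowed. Actin genes share long stretches of coding sequence, and the sources used here do not say how reads that map to several places were treated.

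Tpm1, the gene of alpha-tropomyosin, had 9 peaks, the most of the 7 genes, and 3.50% of genes with a WT peak had as many. The promoter peak (chromosome 9, 67049036 to 67049638) was its strongest, with a fold enrichment of 8.69 and its summit 165 bp before the listed start. That summit still lay within the longer gene model of the RefSeq table. A group of 3 peaks followed inside the gene at 1329, 2161 and 2752 bp downstream, and the middle one had a fold enrichment of 6.47 (67046720 to 67047401). The next upstream peak lay 10785 bp before the start (fold enrichment 3.41). A further 3 lay 41562, 50146 and 56724 bp before it, with fold enrichments of 4.23, 4.20 and 2.58, and belonged to Tpm1 only because no protein-coding gene was nearer. These 3 and the peak past the end of the gene fall to noncoding genes when all genes are allowed.

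Lmod2 encodes leiomodin, which nucleates actin and lengthens thin filaments at their pointed ends. It had a promoter peak (chromosome 6, 24597316 to 24597890) with a fold enrichment of 6.54 and its summit 145 bp before the start. Its other peak lay 11576 bp before the start, at 3.48. That second summit was about as far from the gene Asb15, 13031 bp away.

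The knockout library is taken here as a control for the antibody. The Prdm16cKO list held 330 peaks in all, and none of them had a thin filament gene as its nearest gene. Of the 28 thin filament peaks, 0 shared 1 bp or more with a knockout peak, where 1.12% of all WT peaks did. A count of 0 of 28 allows a share of up to 10.7%, so that this is not distinct from the share over all WT peaks. The nearest knockout summit was 5150327 bp from a thin filament summit, at Lmod2. At Prdm16 itself there were 18 WT peaks and 0 knockout peaks, which does not check the deletion, because it is the same antibody signal. With 1 knockout library, and with depth of the whole-ventricle libraries unknown, the loss of peaks was not tested.

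The next comparison asked whether PRDM16 binding at these genes differed between the ventricles. At 5 of the 7 strongest peaks the libraries of LV and RV overlapped, and no thin filament region passed the test in the authors' table or with limma. Values per library are reads recovered from the ventricle columns of the authors' deposited table and scaled by its factors, called normalized reads. The letters A and B name the 2 libraries of a ventricle and carry no replicate number. In each ventricle A is the library with the smaller scaling factor (0.744 against 1.47 in LV, 0.866 against 0.965 in RV). Library A of LV is therefore not tied to library A of RV. Reads within all WT peaks ranged from 184244 to 330443 per library, and the 28 thin filament peaks held 839 and 346 reads in LV and 770 and 591 in RV. Nothing in a pooled ventricle tells fewer bound cells from less binding per cell. With 2 libraries against 2, an exact two-sided permutation test of a single value cannot go below p = 0.333, so tests were fitted over all 17587 regions.

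Among the troponin genes, the strongest Tnnt2 peak had 78.9 (library A) and 52.7 (library B) normalized reads in LV, and 81.4 and 53.1, in the same order, in RV. The groups overlapped, and library A was above library B in each ventricle, though the letters do not pair the ventricles. The limma difference (log2 RV over LV) was 0.03, with a 95% interval of -0.65 to 0.70. The strongest Tnni1 peak had 103 and 99.6 in LV and 117 and 86.8 in RV, with both LV values between the RV values. Its difference was -0.01 (-0.69 to 0.68), so that a difference past about 0.7 in either direction lay outside the interval at both genes. The width of these intervals draws in part on the variance over all regions. They are therefore not a bound set by the pools at these genes alone.

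The start peak of Tnni3, the troponin I of the mature heart, had 20.1 and 21.98 normalized reads in LV and 23.4 and 28.0 in RV. Both RV values were above both LV values, by a small margin. The difference was 0.27 (95% interval -0.42 to 0.96). At Tnnc1 the strongest peak had 20.8 and 8.79 in LV against 19.9 and 23.2 in RV, where LV library B alone was low. Its difference was 0.62 (-0.17 to 1.41), and it was 0.04 without LV library B and 1.20 without LV library A. The Tnnc1 promoter peak held 6 to 11 reads per library, with 7.44 and 8.79 normalized reads in LV and 6.93 and 10.6 in RV, which overlapped.

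Actc1, whose product forms the filament itself, had 142 and 82.0 normalized reads in LV and 147 and 107 in RV at its promoter peak. The groups overlapped, and library A was the higher within each ventricle. The limma difference was 0.22 (95% interval -0.52 to 0.95). Tpm1 had 49.1 and 20.5 in LV and 46.8 and 26.0 in RV at its promoter peak, and both RV values lay between the LV values. Its difference was 0.13 (-0.62 to 0.88).

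With all 4 libraries, Lmod2 had the largest limma difference of the 7 strongest peaks, ahead of Tnnc1. Without LV library A the order turned (1.20 at Tnnc1 and 0.73 at Lmod2, with 0.74 at Tpm1), as it did without RV library A (0.72 at Tnnc1 and 0.51 at Lmod2). The promoter peak of Lmod2 had 17.1 and 16.1 normalized reads in LV and 31.2 and 24.1 in RV, so that both RV values were above both LV values. The limma difference was 0.69 with SE 0.344 (95% interval -0.01 to 1.39; adjusted p = 0.786 over all regions), and it did not pass. In the authors' deposited table this region had 17.1 in LV and 28.1 in RV (unadjusted p = 0.227). The difference at Lmod2 stayed between 0.51 and 0.87 when each library was left out in turn.

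**Figure D2:**
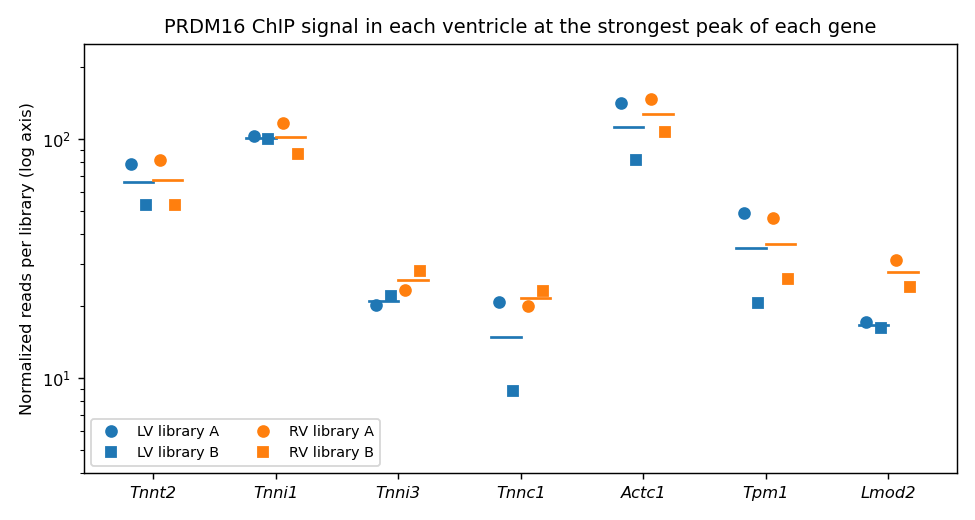
Normalized reads of each LV (blue) and RV (orange) library, on a log axis, at the peak of highest fold enrichment of each gene, with circles for library A, squares for library B and lines at the mean of a ventricle. Both RV points lie above both LV points at Tnni3 and Lmod2, and the points of the ventricles overlap at the other 5 genes.

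Across the thin filament regions, 0 of 28 had an adjusted p under 0.05 in the authors' deposited table (0% of all regions did), and 0 an unadjusted p under 0.05 (0.483% of all regions). The smallest unadjusted p among them was 0.109. With limma 0 of 28 passed at an adjusted p under 0.05 (0.0284% of all regions), and 2 had an unadjusted p under 0.05 (6.32% of all regions). Those 2 were weak peaks of Actc1 and Tpm1. The intervals above reach past 0.6 in log2 on at least 1 side at each strongest peak, so that a count of 0 does not show equal binding. The higher value was in RV in 19 of 28 regions of the authors' table, where 49.8% of all regions did, and the median log2 RV over LV was 0.08 against -0.0028 over all regions. Both RV libraries exceeded both LV libraries in 6 regions (17.6% of all regions) and lay below both in 3 (17.9% of all regions).

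A log2 RV over LV of at least 1 in size was seen in 3 of the 28 regions in the authors' deposited table, as in 10.6% of all regions, and each of them was a weak peak with few reads. A peak inside Actc1 (chromosome 2, 114051850 to 114052031) had 0 (library A) and 2 (library B) reads in LV, against 6 and 8 in RV. Its log2 in the authors' table was 1.82 and its limma adjusted p 0.706. The Actc1 peak 5686 bp before the start (114058503 to 114058668) went the other way, with 6 and 7 reads in LV and 2 and 3 in RV (log2 -1.48). These differences of opposite sign stood in the same locus, on either side of a promoter peak with a difference of 0.18 in that table. The third was the Tpm1 peak past the end of the gene (chromosome 9, 67020247 to 67020586), with 8 and 1 reads in LV and 8 and 15 in RV (log2 1.41; limma adjusted p = 0.715). Summed over all 28 peaks, normalized reads came to 625 and 507 in LV and 667 and 570 in RV, and these totals overlap.

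**Figure D3:**
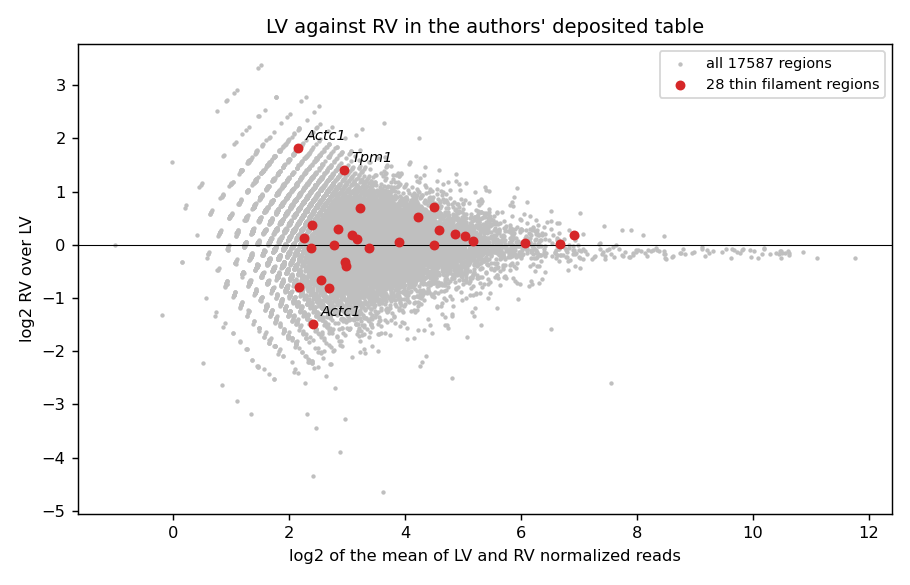
Each region of the authors' deposited table as a point, with log2 of the mean of LV and RV on the x axis and log2 RV over LV on the y axis, all 17587 in grey and the 28 thin filament regions in red. The 3 labelled thin filament regions are those past 1 in size, and they lie among the regions of low signal, where the grey points spread most.

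Other genes of actin filaments were counted from a list of 26. The list was not limited to the heart. It held cytoplasmic actins (Actb, Actg1), smooth muscle actins (Acta2, Actg2) and fast skeletal troponins (Tnnc2, Tnni2, Tnnt3), so its shares are not those of the cardiac filament. Of these, 17 (65.4%) were the nearest gene of a WT peak, against 32.9% of all 21900 protein-coding genes. Those with the highest fold enrichment were Fhod3 (13.3), a formin that assembles actin in the sarcomere, Xirp1 (11.7), an actin-binding protein of muscle, and Cap2 (10.6), which acts on actin filaments. The 9 without a peak were Acta1, Actg2, Tnnc2, Tnni2, Tnnt3, Tpm4, Tmod4, Lmod1 and Xirp2. A peak over a promoter window was found in 3 of the 17 genes of this list with a listed window (17.6%).

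Of 13 thick filament genes, which encode the myosin strand and the proteins that bind or fold myosin, all 13 had a WT peak, and 12 of 12 with a listed window had a peak over it. The highest fold enrichments were at Myh7 (23.5) and Myh6 (11.8), the cardiac myosin heavy chains, and Myl2 (21.0), the ventricular regulatory light chain. The median over genes of the strongest fold enrichment was 8.69 for the 7 thin filament genes, 5.98 for the other thin filament list and 8.95 for the thick filament list, against 4.55 over all genes with a peak. None of the 57 regions of the other thin filament list or the 52 of the thick filament list overlapped a knockout peak or had an adjusted p under 0.05, in the authors' table or with limma. Over all WT peaks 1.12% overlapped a knockout peak, and 0% of all regions passed in the authors' table and 0.0284% with limma. Counts of 0 are therefore not particular to these lists. The median log2 RV over LV in that table was 0.04 and -0.09 for these lists, and 0.08 for the 7 genes.

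**Figure D4:**
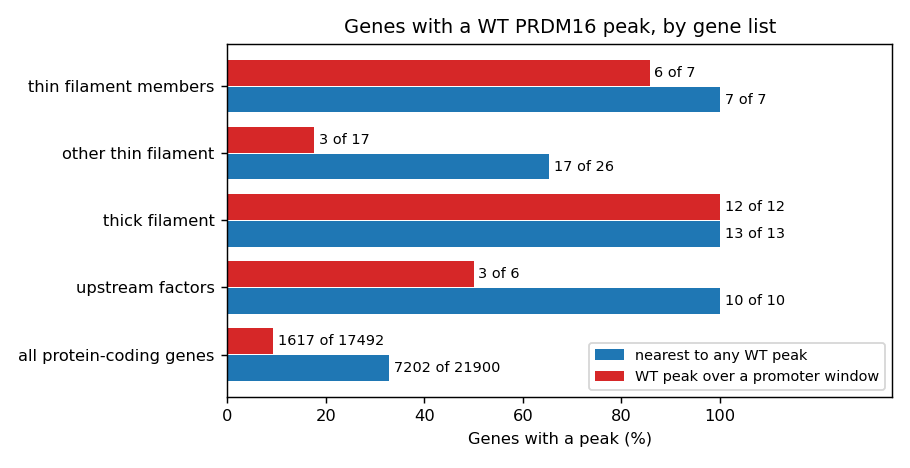
Percent of genes in each list that are nearest to a WT peak (blue) and that have a WT peak over a promoter window (red, of genes with a listed window), with counts beside the bars. The 7 thin filament genes reach 85.7% for promoter windows and the thick filament list 100%, against 17.6% in the other thin filament list and 9.24% over all protein-coding genes. The genes and lists were chosen with earlier results of these data known.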

How the data were processed

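PRDM16 ChIP-seq and input libraries of E13.5 ventricles were labelled as 14 samples in 8 groups. Per the submitters' processing notes, which give no roles, the tools were DESeq2, HOMER, MACS2 2.1.1.20160309 and BWA 0.7.12-r1039 and the builds mm10 and GRCm38. The sources used here do not state the pooling, the filters, the treatment of multiply mapped reads or the test behind the table. The deposited peak lists hold a score, the fold enrichment (a ratio of ChIP to background), a -log10 q and the place of the summit. The deposited table of regions holds LV and RV signal, log2 values and, per the file headers, p-values with their adjusted form. Its log2FC is RV over LV.

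Each LV and RV value less 0.5 was an average of whole reads, each library scaled by its own factor, with exactly 1 solution for 100% of regions (tolerance 1e-07), which gave reads per library. limma 3.58.1 (R 4.3.3) was fitted to log2(normalized reads + 1) over all 17587 regions with a mean-variance trend and Benjamini-Hochberg adjustment. Recovery and limma were tested on simulated data. A summit inside several genes counted for each of them, and none of the 28 was shared. Exons and introns were not used here. Python 3.11.15, numpy 2.4.6, pandas 2.3.3 and matplotlib 3.10.9 did the rest.

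The members, lists and tests were chosen with earlier results of these data known. Named in full were the strongest peak and the peak nearest to the start of each gene, peaks near a promoter window, peaks over a knockout peak (there were none) and peaks past a log2 of 1 or an unadjusted p of 0.05 in the table. Of each list the 3 genes of highest fold enrichment were named, and the 9 genes without a peak were added after the counts were seen. The plan also named the proteins of Tnni1 and Tnni3, which are not analysed here. Replicates are pools of separate tissue as far as the labels say. The limma p-values and intervals do not measure only the spread between the pools at a region. The variance of each region was moderated toward a trend fitted over all regions.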

Additional observations from a re-analysis of the deposited data

How the results depend on the processing

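The 7 genes had a peak in every setting. The count of peaks fell from 28 to 16 with a -log10 q of 5 or more and to 9 with a fold enrichment of 5 or more. It was 23 within 10000 bp of the gene body, 28 by distance to the nearer gene end and 22 with noncoding genes allowed. Overlap with the knockout list was 0 under each of the 3 other overlap rules. The count of thin filament regions past an adjusted p of 0.05 was 0 in the authors' table and in every limma setting run (pseudocounts of 0.1 and 5, a mean of at least 8 reads, equal totals, each library left out, where a lone library is assumed to vary like the others).

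Signs of small limma differences at the strongest peaks were not stable. With each library left out in turn they ranged from -0.28 (without RV library A; -0.26 without LV library B) to 0.33 at Tnnt2, -0.22 to 0.21 at Tnni1 (0.016 without LV library A), -0.18 to 0.61 at Actc1 (-0.013 without RV library A) and -0.48 to 0.74 at Tpm1, and stayed above 0 at Tnni3 (0.15 to 0.40), Tnnc1 (0.04 to 1.20) and Lmod2 (0.51 to 0.87). With equal totals Tnni1 had 0.031. The number of regions higher in RV by limma was 20 of 28, and 14 without RV library A, where the median was -0.0021. It was 15 without LV library B. The cause was not tested. Without RV library A, and again without RV library B, limma called 0 of all 17587 regions, so that 0 of 28 there says nothing about the thin filament genes. Depth limits the weak peaks, which held as few as 0 to 8 reads in a library. No paired analysis was possible because the LV and RV columns carry no replicate number.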

Other observations

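Among 10 transcription factors and cofactors that act on sarcomere genes, all 10 were the nearest gene of a WT PRDM16 peak, with 83 peaks in all. Of all protein-coding genes 32.9% were. This list too was chosen with earlier results of these data known. The highest fold enrichments were at Tbx20 (14.6), a T-box factor of the heart, Myocd (14.5), a coactivator of SRF, with 15 peaks, and Tead1 (12.4), a factor that binds the TEAD motif searched above, with 14 peaks. The strongest peak of Tbx20 lay 114134 bp from the gene and that of Tead1 22959 bp, while the strongest peak of Myocd lay inside it. Of the 6 of these genes with a listed promoter window, 3 had a WT peak over it, against 9.24% of all protein-coding genes with a window. The median number of peaks per gene was 8.5, against 2 for the 7 thin filament genes and 1 over all genes with a WT peak. Of the 83 regions, 1 overlapped a knockout peak, close to the share of 1.12% over all WT peaks. It was a region inside Tbx20. Its fold enrichment was low (1.75), but its signal in the authors' deposited table was high (141 in LV and 118 in RV). In LV against RV, 1 region, inside Tbx5, a T-box factor of the left ventricle, had an unadjusted p under 0.05 in the authors' deposited table, as did 0.483% of all regions. It had 31.6 in LV and 6.52 in RV (adjusted p = 0.9998). It was among the 5 of all 17587 regions that passed with limma in the main setting (log2 RV over LV -2.21, SE 0.402, adjusted p = 0.0186). That number depended on the setting, with 1 region at a pseudocount of 0.1 and 14 at 5. Whether the Tbx5 region passed in other settings is not given here. The Tbx20 and Tbx5 regions were singled out after their values were seen.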
